A study of Caenorhabditis elegans with 16 samples.

Results

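Protein disulfide isomerases (PDIs) are enzymes of the ER lumen that form, break and rearrange the disulfide bonds of secreted and membrane proteins. Their genes are known targets of the unfolded protein response (UPR), which raises the folding capacity of the ER when unfolded proteins build up. In nematodes PDI-2 is also a subunit of the collagen prolyl 4-hydroxylases, ER enzymes that hydroxylate prolines of collagen chains and so stabilise the triple helix, with PHY-1 (DPY-18) and PHY-2 as the catalytic subunits. The 5 genes described here, *pdi-1*, *pdi-2*, *pdi-6*, *C14B9.2* and *phy-2*, were taken by name from the 8347 named genes of the expression table. The first 4 encode PDI family members of the oxidative folding machinery and the last a prolyl 4-hydroxylase subunit. All 5 were expressed well above the limit for testing.

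RNA was sequenced from whole *C. elegans* to compare the transcriptional response to tunicamycin (TM), an inhibitor of N-glycosylation that causes ER stress, in WT (N2) animals and in *osm-3(dh441)IV* mutants. *osm-3* encodes a kinesin needed for sensory cilia, and the dh441 allele carries a premature stop codon. There were 4 groups of 4 libraries: WT on control plates (vehicle), WT on 10 µg/mL TM, *osm-3* mutants on vehicle and *osm-3* mutants on 10 µg/mL TM. The word vehicle is a short name here for the control plates, which the sample labels call no treatment. All animals were synchronized day 1 adults collected after 6 hr on the plates. The mutant was represented by 1 allele, and each library came from a population of whole animals, so that fewer cells of a type and less RNA per cell cannot be told apart. The *osm-3* transcript itself was not analysed here.

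The deposited values are variance-stabilized counts on the log2 scale, and they converted back to whole reads. Libraries held 4173301 to 8144875 reads on named genes, and the 5 genes had 378 to 13500 reads in a library. Markers of body wall muscle (*unc-54*, *unc-15*), intestine (*vit-2*, *vit-5*, *elt-2*), germline (*cgh-1*) and neurons (*egl-21*, *egl-3*, *flp-1*) were detected in every library. Sperm *msp-* transcripts and neuron markers separated the genotypes, and summed cuticle collagens did so only within a condition. On vehicle these collagen sums reached 677687 in WT libraries and began at 682088 in *osm-3* libraries. Under TM they reached 525676 in WT and began at 652042 in *osm-3* libraries. The summed normalized counts of 10 *msp-* genes were 692 to 1287 in the WT libraries and 2987 to 6464 in the *osm-3* libraries, and 9 of 9 tested were higher in the mutants under both conditions. The 3 neuron markers summed to 1306 to 1713 in the WT libraries and 2006 to 2332 in the *osm-3* libraries, with 2 of 3 passing as higher in the mutants on vehicle and 1 under TM. The part of these tissue differences in the results below was not tested.

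In the WBcel235 assembly (Ensembl annotation release 115), the genes lie at separate loci. *pdi-1* (C14B1.1) occupies chromosome III from 3699739 to 3701461 on the minus strand, with 4 exons. It lies 98 bp from *cyn-9*, a cyclophilin gene on the same strand that is known to be transcribed with it in an operon and was not analysed here. *C14B9.2*, similar to mammalian ERp72 (PDIA4), lies on the same chromosome from 8133665 to 8136649 on the plus strand, with 3 exons. *pdi-2* (C07A12.4) is on chromosome X from 4524155 to 4526536 on the plus strand, and its 2 annotated transcripts were counted together. *pdi-6* (B0403.4), the relative of mammalian PDIA6, is also on X, from 7066342 to 7068563 on the minus strand, with 4 exons. *phy-2* (F35G2.4) is on chromosome IV from 12211097 to 12215987 on the minus strand, with 11 exons. Noncoding RNA genes overlap 4 of the 5 genes in the annotation. The overlap is on the same strand only for *pdi-2* (with C07A12.19), and reads of *pdi-2* and this RNA cannot be told apart.

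The first question was how TM changed these genes in WT animals. Of the 5 genes, 3 rose past the threshold: *pdi-6*, *C14B9.2* and *pdi-2*, by 2.23-fold, 2.29-fold and 1.72-fold of the mean normalized count. Among all 4115 tested genes 1.56% passed and 0.826% passed as higher (limma, adjusted p under 0.05). *pdi-1* was 1.34-fold higher without passing, and *phy-2* differed by 1.08-fold. The median log2 difference of the 5 genes was 0.77, against -0.016 over all tested genes.

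*pdi-6* had 3086, 2823, 3431 and 3081 normalized counts in the WT vehicle libraries (replicates 1 to 4). With TM it had 6562, 6736, 7479.7 and 6901. Every TM library lay far above every vehicle library, and the spread within each group was small. The log2 difference was 1.11 ± 0.090 (SE, 95% interval 0.92 to 1.30, limma adjusted p = 2.7e-07), number 6 of all tested genes by p.

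*C14B9.2* had 748, 736, 718 and 748 normalized counts in the WT vehicle libraries and 1794, 1614, 1812 and 1542 with TM. Its vehicle libraries were the most alike of the 5 genes, with an SD of 0.023 on the log2 scale, and every TM library was far above every vehicle library. This was a log2 difference of 1.02 ± 0.074 (interval 0.86 to 1.18, limma adjusted p = 6.9e-08), number 5 by p.

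*pdi-2* had 6359.7, 5543, 7044 and 6575 normalized counts in the WT vehicle libraries and 11737, 9867, 11262 and 11085 with TM. The groups did not overlap, and replicate 2 was the lowest library of both. *pdi-2* differed by 0.77 ± 0.12 on the log2 scale (interval 0.51 to 1.03, limma adjusted p = 0.0018).

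*pdi-1* had 5584, 4738, 5315 and 5859.6 normalized counts in the WT vehicle libraries and 8307, 6040.0, 6826 and 7576 with TM. The groups were apart by the narrow gap between vehicle replicate 4 and TM replicate 2. The log2 difference of 0.40 ± 0.13 (interval 0.12 to 0.68) did not pass over all genes (limma adjusted p = 0.18). In both conditions replicate 2 was the lowest library, and a fit blocked on replicate gave an adjusted p of 0.0067. In all, the groups did not overlap for 4 of the 5 genes, all higher with TM, against 2.31% of all tested genes higher without overlap.

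*phy-2* had 845, 752, 926 and 846 normalized counts in the WT vehicle libraries and 691, 929.8, 1097 and 926 with TM. TM replicate 1 was below all vehicle libraries and TM replicates 2 and 3 above them, so the TM group spanned the vehicle group. The log2 difference was 0.083 ± 0.12 (interval -0.17 to 0.33, limma adjusted p = 0.995). An increase of the size seen for *pdi-2*, whose own interval starts at 0.51, lay outside the interval for *phy-2*.

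**Figure D1:**
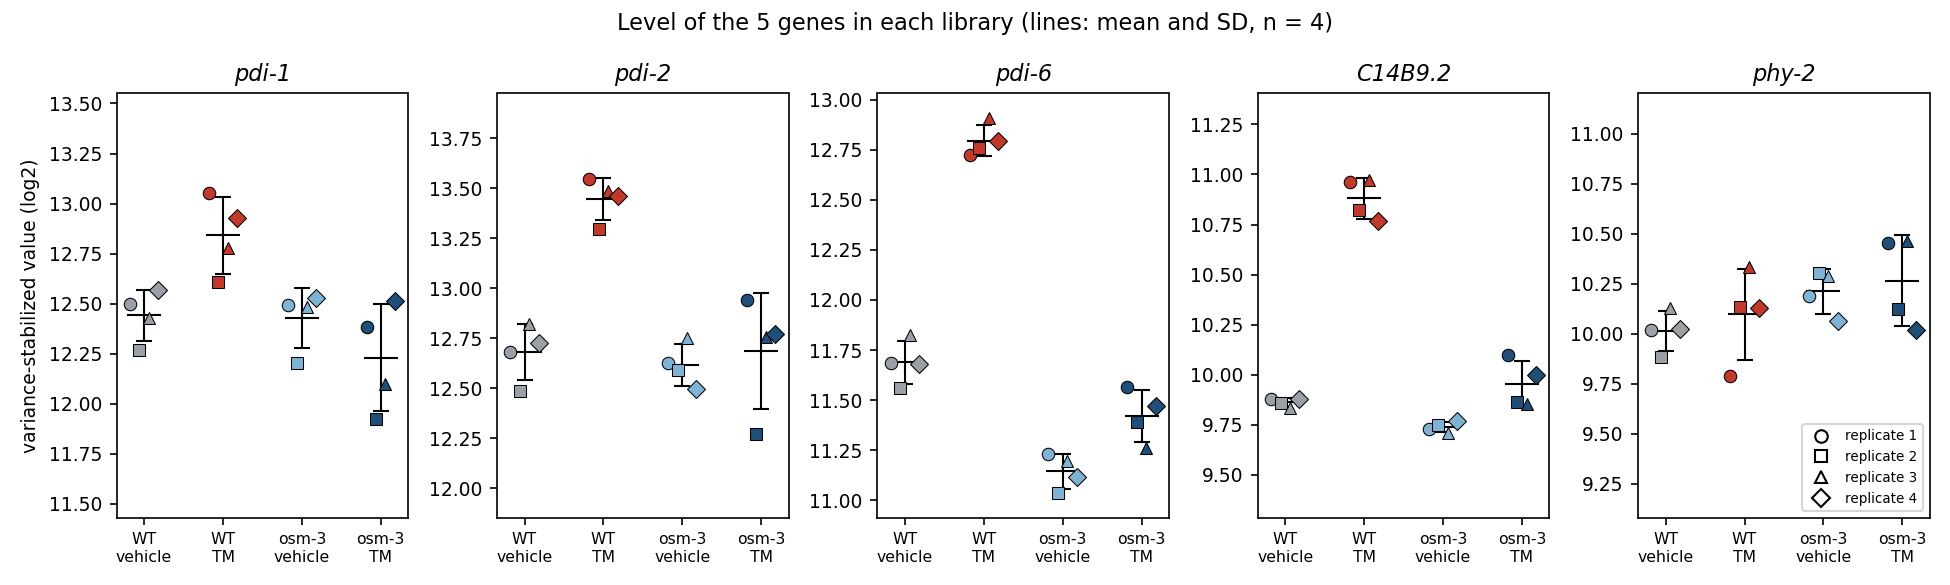
Variance-stabilized log2 value of each gene in each of the 16 libraries, by group, each panel with its own vertical range of equal length. Symbols mark the replicate number and lines the mean and SD of 4 libraries. The WT TM libraries stand above the other 3 groups for the 4 PDI genes, with group means of 12.84 (*pdi-1*), 13.45 (*pdi-2*), 12.80 (*pdi-6*) and 10.88 (*C14B9.2*), while the 4 groups of *phy-2* overlap, with means from 10.01 to 10.27.

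The second question was whether the same genes responded in *osm-3* mutants. There 0 of the 5 genes passed in limma, and 0 with voom on the recovered reads. Of all tested genes 0.0729% passed. At an unadjusted p under 0.05, 2 of the 5 genes (*pdi-6* and *C14B9.2*) were counted, and 493 of the 4115 tested. Both were higher with TM, by 1.23-fold and 1.21-fold, without overlap between the groups. Among all tested genes 1.75% were higher without overlap. The median log2 difference of the 5 genes was 0.069, against -0.036 over all tested genes.

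*pdi-6* had 2201, 1900.4, 2142 and 2016 normalized counts in the *osm-3* vehicle libraries and 2826, 2479.9, 2252 and 2632 with TM. TM replicate 3 lay just above the highest vehicle library. The log2 difference was 0.28 ± 0.090 (interval 0.088 to 0.47), with a limma adjusted p of 0.36 and an unadjusted p of 0.0065. When replicates were blocked within each genotype, *pdi-6* passed (limma adjusted p = 0.044), and it was the only 1 of the 5 to do so.

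*C14B9.2* had 656, 668, 643 and 679 normalized counts in the *osm-3* vehicle libraries and 899.7, 739, 733 and 829.6 with TM. All TM libraries were above all vehicle libraries, and replicates 2 and 3 lay within the range of the WT vehicle libraries. The log2 difference was 0.22 ± 0.074 (interval 0.060 to 0.37), with a limma adjusted p of 0.36 and an unadjusted p of 0.0096.

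*pdi-2* had 6115, 5973, 6698 and 5580.1 normalized counts in the *osm-3* vehicle libraries and 7664, 4747, 6717 and 6791 with TM. TM replicate 1 was the highest of these libraries and TM replicate 2 the lowest, so the TM group spanned the vehicle group. The log2 difference of 0.069 ± 0.12 (interval -0.19 to 0.33, limma adjusted p = 0.76) became -0.016 without TM replicate 1 and 0.21 without TM replicate 2.

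*pdi-1* had 5559, 4518, 5531 and 5713 normalized counts in the *osm-3* vehicle libraries and 5145, 3686, 4185 and 5648 with TM. Its mean was lower with TM by -0.20 ± 0.13 on the log2 scale (interval -0.47 to 0.080, limma adjusted p = 0.42), and the groups overlapped. *phy-2* had 972, 1067, 1056 and 876 normalized counts on vehicle and 1207, 920.3, 1217 and 844 with TM. Replicates 1 and 3 of the TM group lay above all vehicle libraries and replicate 4 below them (0.054 ± 0.12, interval -0.20 to 0.31, limma adjusted p = 0.81).

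In replicates 1 and 2 of the TM-treated mutants, all 5 genes deviated the same way within a library. Replicate 1 was above its group mean for all 5 genes and replicate 2 was below it for all 5, by 0.41 on the log2 scale for *pdi-2* and 0.31 for *pdi-1*. Replicate 3 was below its group mean for 3 of the 5 genes and replicate 4 for 1. WT vehicle replicate 2 was also below its group mean for all 5. The SD of the TM-treated mutants was the largest of the 4 groups for all 5 genes, at 0.27 for *pdi-1* and 0.29 for *pdi-2*. For *phy-2* it was nearly that of WT TM (both 0.23). Leaving out any 1 library did not bring any of the 5 genes past the threshold in the mutants, although the count over all tested genes rose from 3 to 793 without *osm-3* TM replicate 4.

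The responses of the genotypes were then compared with each other. *osm-3* mutants had a smaller TM response than WT animals for *C14B9.2*, by -0.80 ± 0.11 on the log2 scale (interval -1.02 to -0.58, limma adjusted p = 4.7e-04), and for *pdi-6*, by -0.83 ± 0.13 (interval -1.10 to -0.56, limma adjusted p = 0.0019). These were 2 of the 5 genes, against 0.486% of all tested genes that passed in either direction and 0.267% that passed as lower. For *pdi-2* the difference between the responses was -0.70 ± 0.18 (limma adjusted p = 0.16), and for *pdi-1* it was -0.60 ± 0.19 (limma adjusted p = 0.38). In a fit blocked on replicate, both passed (limma adjusted p = 0.0196 for *pdi-2* and 0.015 for *pdi-1*), and 4 of the 5 genes were called. For *phy-2* the responses differed by -0.029 ± 0.17 (interval -0.38 to 0.33, limma adjusted p = 0.97), and the sign turned with quantile normalization (0.042).

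**Figure D2:**
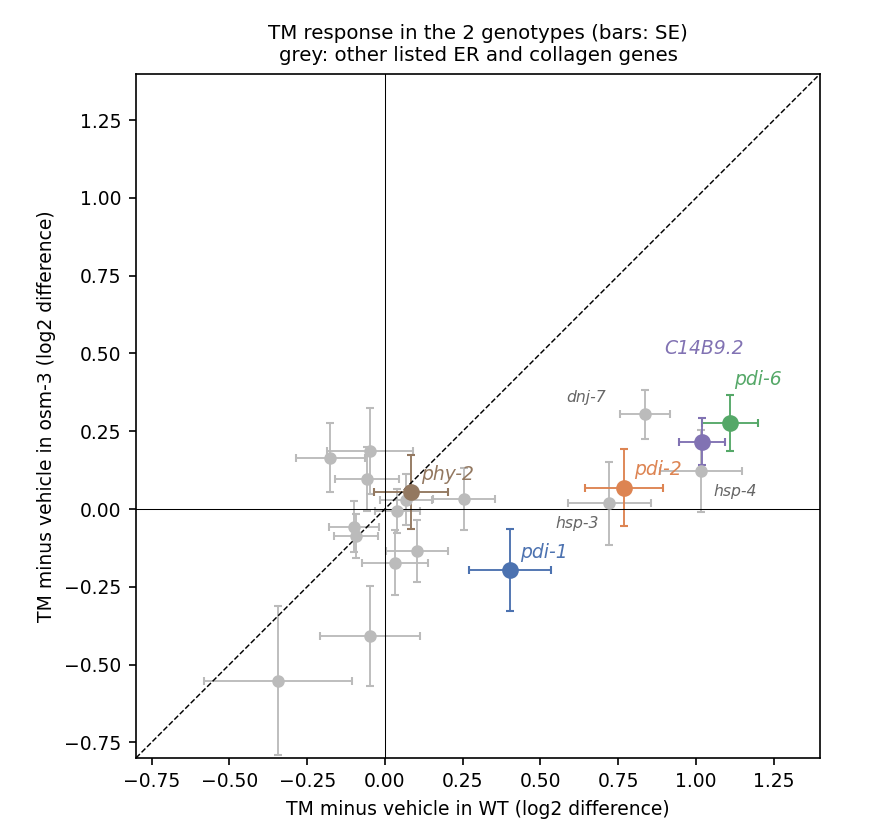
Log2 difference between TM and vehicle in *osm-3* mutants (vertical axis) against that in WT animals (horizontal axis) for the 5 genes (coloured) and 15 other tested genes of ER folding and collagen IV (grey), with bars for the SE. The dashed line marks equal responses. *pdi-6* (1.11 and 0.28) and *C14B9.2* (1.02 and 0.22) lie far below it beside the chaperones *hsp-4*, *dnj-7* and *hsp-3*, and *phy-2* (0.083 and 0.054) lies near it.

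Without TM, 1 of the 5 genes differed between the genotypes. *pdi-6* was lower in *osm-3* mutants on vehicle, at 0.665-fold of its WT level, and all 4 mutant libraries (1900.4 to 2201 normalized counts) were below all 4 WT libraries (2823 to 3431). The log2 difference was -0.55 ± 0.090 (interval -0.73 to -0.36, limma adjusted p = 4.2e-04). In this comparison 10.6% of all tested genes passed and 4.28% passed as lower. *C14B9.2* was also lower in every mutant library than in every WT library, by a smaller -0.12 ± 0.074 that did not pass (interval -0.28 to 0.032, limma adjusted p = 0.36). These 2 of the 5 genes did not overlap between genotypes, against 20.3% of all tested genes in either direction. *pdi-1* (-0.013, interval -0.29 to 0.26) and *pdi-2* (-0.063, interval -0.32 to 0.20) had nearly the same means in both genotypes, and the sign for *pdi-1* turned when each library was centred on its median (0.0013). *phy-2* was higher in the mutants by 0.20 ± 0.12 (interval -0.054 to 0.45, limma adjusted p = 0.37).

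Under TM, all 4 PDI genes had lower levels in the mutants, and every mutant library was below every WT library. 4 of the 5 genes passed as lower, where 19.2% of all tested genes passed, 9.74% as lower, and 8.53% were lower without overlap. This comparison shares its TM-treated WT libraries with the WT response above. *pdi-6* was at 0.368-fold of its WT level (-1.38 ± 0.090, limma adjusted p = 1.8e-08), number 3 of all tested genes by p. *C14B9.2* was at 0.473-fold (-0.93 ± 0.074, limma adjusted p = 1.6e-07) and *pdi-2* at 0.590-fold (-0.76 ± 0.12, limma adjusted p = 2.5e-04). *pdi-1* was at 0.649-fold (-0.61 ± 0.13, limma adjusted p = 0.0032). *phy-2* was the exception, with a difference of 0.17 ± 0.12 towards the mutants (interval -0.082 to 0.42, limma adjusted p = 0.30) and overlapping groups. The median of all tested genes in this comparison was -0.10, and after each library was centred on its median the calls split into 443 higher and 267 lower, against 391 higher and 401 lower as deposited.

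**Figure D3:**
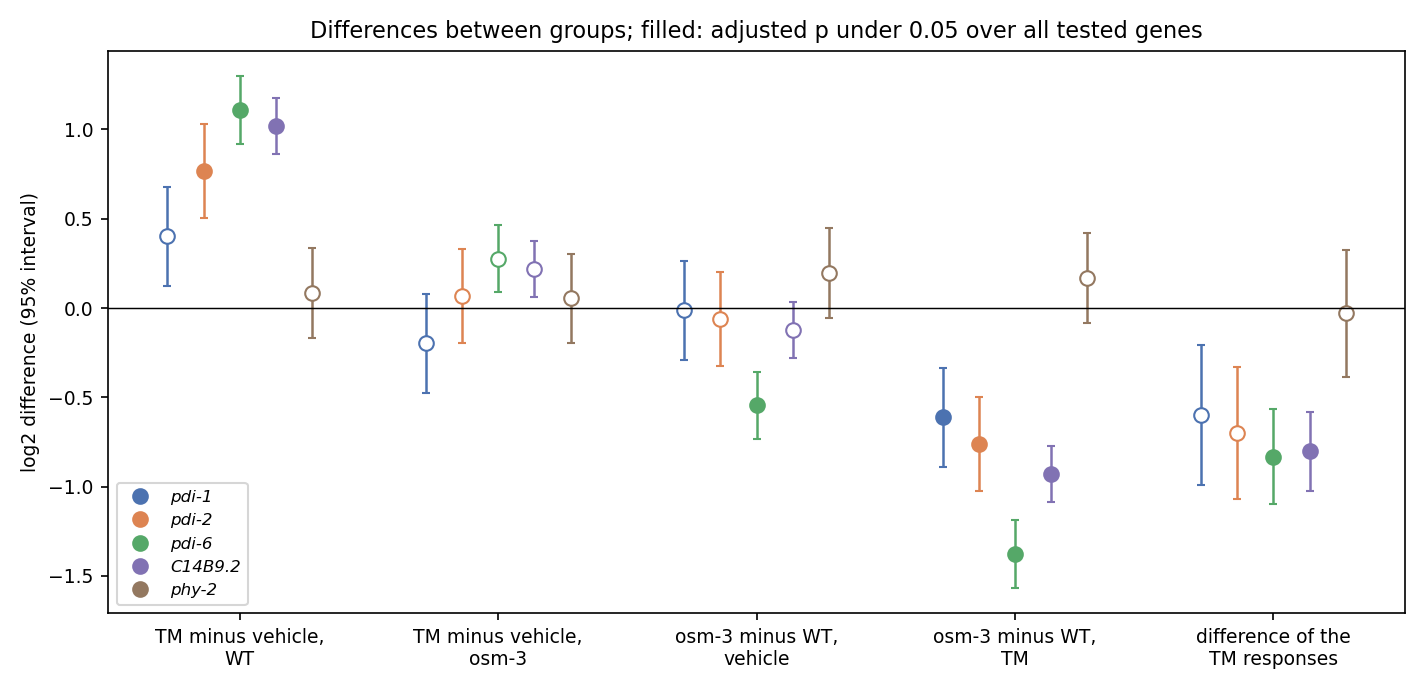
Log2 differences of the 5 genes in the 5 comparisons, with 95% intervals from the fit over all 16 libraries. Filled points passed an adjusted p of 0.05 over all 4115 tested genes. The filled points are *pdi-2*, *pdi-6* and *C14B9.2* for TM in WT animals, *pdi-6* alone for genotype under vehicle, the 4 PDI genes for genotype under TM, and *pdi-6* and *C14B9.2* for the difference of the TM responses.

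All 10 of these calls passed under every alternative processing run. The order of the group means differed between the genes. For all 4 PDI genes WT TM was the highest group, apart from the next. *pdi-6* was lowest in *osm-3* vehicle, with *osm-3* TM (11.42 ± 0.13, SD, n = 4) below WT vehicle (11.69 ± 0.11) although 1 library of each overlapped. For *C14B9.2* and *pdi-2*, *osm-3* TM came second and overlapped WT vehicle, although for *C14B9.2* its mean of 9.95 lay above every WT vehicle library. For *pdi-1*, *osm-3* TM was the lowest group (12.23 ± 0.27), with libraries that overlapped both vehicle groups. *phy-2* had both mutant groups above both WT groups, with all neighbours in the order overlapping.

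Per kilobase of transcript, *pdi-1* and *pdi-2* were the most abundant of the 5 on vehicle in WT animals, with 3408 ± 304 and 3362 ± 330 normalized counts per kb (SD, n = 4), ranks 203 and 205 of 8070 genes with a length. *pdi-6* followed at 1890.1 ± 152 per kb, then *phy-2* at 485 ± 40.8 and *C14B9.2* at 349 ± 6.78. With TM in WT animals *pdi-2* reached 5789 ± 420 per kb and rank 134, and *pdi-6* at 4212 ± 242 came near *pdi-1* at 4557 ± 618. *C14B9.2* (800.4 ± 63.1 per kb) passed above *phy-2* (525 ± 96) in this group alone. The 4 PDI genes together had 9009 ± 698 normalized counts per kb in WT vehicle, 15359 ± 1028 in WT TM, 8159 ± 500 in *osm-3* vehicle and 8302 ± 1260 in *osm-3* TM. The lowest WT TM library (13893) was above the highest library of the other 3 groups (9510).

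The make-up of this PDI pool shifted as well as its size. In WT animals *pdi-1* made up 37.8% ± 1.78 of the per-kilobase sum on vehicle and 29.6% ± 2.38 with TM (SD, n = 4), while *pdi-6* made up 19.9% to 22.0% over the vehicle libraries and 24.5% to 29.5% over the TM libraries. The share of *pdi-2*, the isomerase that also serves collagen hydroxylation, was 37.3% ± 1.17 on vehicle and 37.7% ± 0.262 with TM. In *osm-3* mutants *pdi-6* made up 15.4% ± 0.403 on vehicle, less than in any other group, and 18.9% ± 2.46 with TM. *C14B9.2* held 3.85% to 5.22% of the sum as a group mean.

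Ratios of 2 genes within a library do not depend on how libraries are scaled. The *pdi-2* to *phy-2* ratio, the isomerase subunit over the catalytic subunit, was tightly set in WT vehicle, from 6.74 to 7.11 per kilobase over the 4 libraries. It was 9.39 to 15.5 in WT TM, the highest value in replicate 1, where *phy-2* was at its lowest. In *osm-3* vehicle it was 5.12 to 5.82, below every WT vehicle library, and in *osm-3* TM it ranged from 4.72 to 7.36. The *pdi-2* to *pdi-1* ratio was 1.17 to 1.37 in WT TM, above every WT vehicle library (mean 0.988), and in *osm-3* mutants it had a mean of 0.958 on vehicle and ran from 0.999 to 1.33 with TM. The *pdi-6* to *pdi-2* ratio, chosen after the values were seen, was 0.541 to 0.588 in WT vehicle and 0.368 to 0.417 in *osm-3* vehicle, so *pdi-6* was lower relative to *pdi-2* in every untreated mutant library. These ratios are descriptions without a test.

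**Figure D4:**
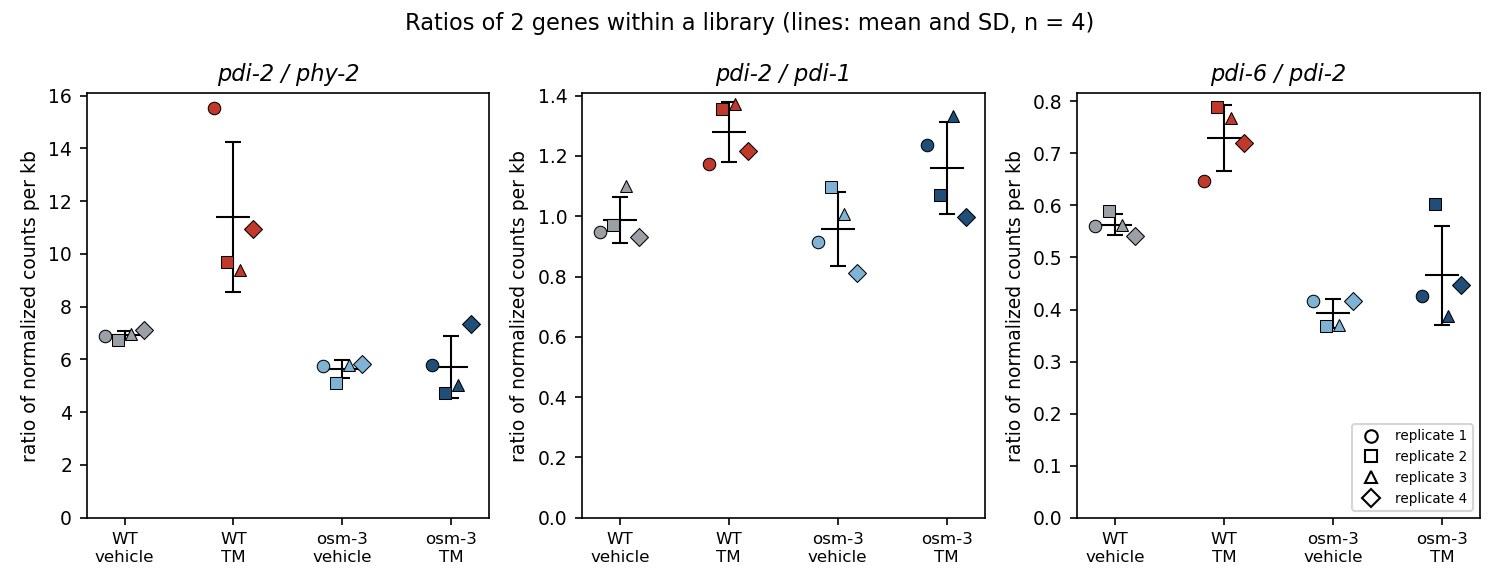
Ratios of normalized counts per kilobase within each library, *pdi-2* to *phy-2* (left), *pdi-2* to *pdi-1* (middle) and *pdi-6* to *pdi-2* (right), by group. Symbols mark the replicate number and lines the mean and SD of 4 libraries, on axes that start at 0. The *pdi-2* to *phy-2* ratio has a mean of 6.92 in WT vehicle, 11.4 in WT TM, 5.62 in *osm-3* vehicle and 5.73 in *osm-3* TM.

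Across the 16 libraries, which share 4 group means and the authors' scaling, the PDI genes varied together. Pearson's r was 0.96 for *pdi-6* with *C14B9.2*, 0.93 for *pdi-2* with *C14B9.2*, 0.90 for *pdi-2* with *pdi-6* and 0.83 for *pdi-1* with *pdi-2*. After the group means were removed, *pdi-1* with *pdi-2* had the largest r of these pairs (0.67), and *pdi-6* with *C14B9.2* had 0.41. *phy-2* had an r from -0.38 to -0.023 with the 4 PDI genes. With group means removed its r was 0.38 with *pdi-2* and 0.29 with *pdi-6*, a change of sign, and -0.30 with *pdi-1* and -0.051 with *C14B9.2*. Outside the 5 genes themselves, the 3 tested genes most like each were taken by Pearson's r over the 16 libraries. For *pdi-2* they were *hsp-3* (0.97), an ER Hsp70 of the BiP type, *nucb-1* (0.96) and *dnj-7* (0.92), an ER DnaJ cochaperone. For *pdi-6* they were *gale-1* (0.97), a UDP-galactose epimerase, *dnj-7* (0.97) and *F41B4.3* (0.95), and for *C14B9.2* *gale-1* (0.98), *F41B4.3* (0.98) and the serpin *srp-7* (0.97). For *pdi-1* they were *C04F12.1* (0.96), *cope-1* (0.95), a coatomer subunit of vesicle transport, and *tag-353* (0.94). For *phy-2* they were the serpin *srp-6* (0.90), *mctp-1* (0.89) and the small heat shock gene *hsp-25* (0.89). None of these passed for TM in WT animals, but they were chosen by their likeness to *phy-2*, which did not pass either.

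Other genes of ER folding were read from lists, of which 15 of 43 genes were tested. The 3 ER chaperones tested of 6 listed moved as the PDI genes did. In WT animals *hsp-4* (1.02 ± 0.13), *dnj-7* (0.84 ± 0.080) and *hsp-3* (0.72 ± 0.13) all rose with TM, and their median of 0.84 compares with -0.016 over all tested genes. In *osm-3* mutants 0 of 3 passed in limma or voom, 1 had an unadjusted p under 0.05 and the median was 0.12. That gene, *dnj-7* (0.30), passed with the block within each genotype (limma adjusted p = 0.028). All 3 passed as lower in the mutants under TM, where 9.74% of all tested genes did. The TM response was smaller in the mutants for *hsp-4* (-0.89, limma adjusted p = 0.038) and *dnj-7* (-0.53, limma adjusted p = 0.041), calls that held under 14 and 6 of 26 alternatives. For *hsp-3* (-0.70, limma adjusted p = 0.20) this difference passed in the fit blocked on replicate (limma adjusted p = 0.013). *dnj-7* was also lower in mutants on vehicle (-0.32, limma adjusted p = 0.013), the direction seen for *pdi-6*. Of 12 other ER thiol oxidoreductases, 3 were tested (*erp-44.1* and *erp-44.2*, of the ERp44 type that retains its clients in the ER, and *F35G2.1*) and 0 passed in limma or voom in any comparison. In *osm-3* mutants *F35G2.1*, the only 1 of them with an unadjusted p under 0.05, had a TM difference of -0.41 (limma adjusted p = 0.36), which passed with the block within each genotype (limma adjusted p = 0.040). *erp-44.1* was lower in the mutants under TM when blocked on replicate (-0.21, limma adjusted p = 0.027, against 0.14 without the block). The UPR sensors *ire-1* and *atf-6* passed in 0 of the comparisons in limma or voom, and 1 of the 2 had an unadjusted p under 0.05 in each of the genotype comparisons. With 1 library left out, 0 to 2 of them passed for genotype under TM, as lower in the mutants.

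ER prolyl isomerases, which turn peptide bonds before proline in collagens and other clients, did not follow the PDI genes as a list. *cyn-5* had the direction of *pdi-2* in each comparison, with smaller differences except on vehicle. Of 7 listed, 6 were tested, and 0 passed in limma or voom for TM in either genotype or for the difference of the responses. Their median was -0.052 for TM in WT animals, where 1 of the 6 had an unadjusted p under 0.05. That gene was *cyn-5* (0.25, limma adjusted p = 0.33), which differed by 0.032 with TM in *osm-3* mutants. In the mutants the median of the 6 was 0.065, and 0 had an unadjusted p under 0.05. *fkb-7* was lower in *osm-3* mutants on vehicle (-0.38 ± 0.081, limma adjusted p = 0.0036), at 0.522-fold of its WT level. It was also lower under TM (-0.34 ± 0.081, limma adjusted p = 0.0067), at 0.534-fold. Under TM *cyn-5* was lower in the mutants (-0.29, limma adjusted p = 0.048, held under 6 of 26 alternatives) and *fkb-5* higher (0.36, limma adjusted p = 0.032, held under 20 of 25). Among the 6, 1 thus passed as lower on vehicle, where 4.28% of all tested genes did. Under TM 2 passed as lower and 1 as higher, against 9.74% and 9.5% of all tested genes. *fkb-1* (-0.20, limma adjusted p = 0.062) passed there when blocked on replicate (limma adjusted p = 0.035). The other catalytic and modifying enzymes of collagen on the list, 8 in all, were not analysed here.

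Cuticle collagens are clients of prolyl 4-hydroxylase, and 40 of the 68 *col-* genes in the table were tested. With TM in WT animals 39 of 40 had a lower mean and 5 passed as lower (0.729% of all tested genes did). Their median log2 difference was -0.31, against -0.016 over all tested genes, while *phy-2* differed by 0.083. The 5 became 10 when WT TM replicate 4 was left out, and 3 when WT vehicle replicate 1 or 3, or WT TM replicate 1 or 2, was left out. With the replicate blocks the count was 9 or 11. In *osm-3* mutants 31 of 40 had a higher mean with TM, with a median of 0.21 against -0.036 over all tested genes. There 0 of 40 passed in limma or voom, and 15 had an unadjusted p under 0.05, as did 493 of the 4115 tested genes. That 0 became 9 without *osm-3* TM replicate 4, 2 without WT vehicle replicate 4, 1 without WT TM replicate 4, and 4 or 12 with the replicate blocks. The difference of the TM responses was towards the mutants for 40 of 40, with a median of 0.68 against -0.050 over all tested genes. The 40 genes were read in the same libraries, so their directions are not 40 separate observations. Of these 2 passed, and 0 to 4 with 1 library left out (0.486% of all tested genes passed in either direction). Between genotypes 37 of 40 passed as higher in the mutants under TM (9.5% of all tested genes did), with a median of 1.05 against -0.10 over all. On vehicle 8 passed as higher (6.37% did), with a median of 0.31 against -0.041. The 8 became 4 without WT vehicle replicate 1 or 2 or *osm-3* vehicle replicate 1 or 3, and 15 with the replicate block. The differences of *phy-2* in these comparisons were 0.17 and 0.20, in the same direction and without passing. The summed normalized counts of all 68 *col-* genes, tested or not, had a median of 574011 in WT vehicle and 419568 in WT TM. In *osm-3* mutants the median was 739257 on vehicle and 745594 with TM. *let-2*, a chain of basement membrane collagen IV, did not pass in any comparison in limma or voom, with an unadjusted p under 0.05 only for TM in *osm-3* mutants (-0.55, limma adjusted p = 0.36). With blocks it passed for TM in the mutants (within each genotype, limma adjusted p = 0.022) and as higher in the mutants on vehicle (0.50, limma adjusted p = 0.039).

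Of the 10 genes that flank the 5 loci, 6 were tested. In WT animals 1 of the 6 rose with TM: *C07A12.7*, 2010 bp from *pdi-2* on the opposite strand (0.47, limma adjusted p = 0.014, held under 22 of 26 alternatives), and it was lower in *osm-3* mutants under TM (-0.39, limma adjusted p = 0.0085). *hsp-12.2*, beside *C14B9.2*, was higher in the mutants under TM (0.29, limma adjusted p = 0.036, held under 19 of 25), opposite to *C14B9.2*. For genotype under TM 2 of the 6 thus passed, against 19.2% of all tested genes. For TM in WT animals 1.56% of all tested genes passed. In the remaining comparisons 0 of the 6 passed in limma or voom. At an unadjusted p under 0.05 there were 0 for TM in *osm-3* mutants, 1 for genotype on vehicle and 1 for the difference of the responses. Of all 4115 tested genes, 493, 939 and 202 had an unadjusted p under 0.05 in these comparisons.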

How the data were processed

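The authors depleted RNA of ribosomal RNA, made strand-specific paired-end libraries, mapped trimmed reads with kallisto 0.43.0-1 to WBcel235 cDNA, summed them per gene and used DESeq2 1.16.1. The deposited table used here holds variance-stabilized log2 values. The call that made them is not given in the sources used here. The authors' comparison tables (fold changes, standard errors, p-values) were not used.

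The transformation was inverted: 100% of values came within 0.01 of whole reads. The row without a gene name (0.177% to 0.531% of reads) was left out. Library pairs all differed beyond sampling noise (lowest chi-square per degree of freedom 3.86).

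Differences were tested with limma 3.58.1 (R 4.3.3, eBayes with trend) on the log2 values with 4 group means and 12 residual degrees of freedom, two-sided, over the 4115 genes whose mean exceeded a count of 0 by at least 1 log2 unit. This replaces the count model of the study, since the deposited unit is log2. Benjamini-Hochberg adjustment was over all tested genes. Fold values are ratios of mean normalized counts. Log2 differences are on the variance-stabilized scale, which shrinks differences at low counts, so they are not the log2 of these fold values. For TM in WT animals *C14B9.2* had a larger fold than *pdi-6* (2.29 against 2.23) but a smaller log2 difference (1.02 against 1.11).

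Same-number libraries deviated together within each genotype (correlations 0.25 to 0.86 in 8 pairs), though *osm-3* vehicle replicate 2 was more like another number under TM (0.56 against 0.36). Between genotypes on vehicle the same-number correlations were 0.18 to 0.50, though WT replicate 3 was more like another number (0.46 against 0.43). Under TM the same-number correlations were 0.64 and 0.62 for replicates 2 and 3, but -0.040 and 0.029 for replicates 1 and 4. There WT replicates 1 and 4 were more like another number (0.80 and 0.28). A replicate block is given where it changed a call of the 5 genes or of a listed ER or collagen IV gene. Except within genotype, the block takes a number as the same replicate in both genotypes, which replicates 1 and 4 under TM do not bear out. The study calls the replicates biological without saying what was kept separate, and p-values measure only the spread between these libraries.

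Alternatives were filters, only the groups compared, blocks, no trend, library weights, median centring, quantile normalization, log2 of the normalized count plus 1, voom on recovered reads, and leaving out each library. Named genes are the 5, list genes past the threshold with at most 4 others a list, the 3 most correlated genes for each, and the flanking genes. Flanking genes were added after values were seen. The genes, lists and tests were chosen with earlier results of these data known. Protein sequences were not used here, so lists by sequence were not made.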

Additional observations from a re-analysis of the deposited data

Results flagged for a closer look

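Among the *osm-3* vehicle libraries, *pdi-1* had a log2 value of 12.20 in replicate 2, against 12.49 to 12.53 in the other 3. The gap to the nearest library was 0.86 of the group's range, above the 95% critical value of Dixon's test for 4 samples. It was the only 1 of 20 groups examined, and chance gives about 1 in 20. The TM responses of *pdi-6* and *C14B9.2* differed between the genotypes in the test of the difference itself, by -0.83 and -0.80 on the log2 scale (limma adjusted p = 0.0019 and 4.7e-04), with a smaller rise in *osm-3* mutants.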

How the results depend on the processing

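The 10 calls of the 5 genes all held, over 27 alternatives for the WT response and 26 for the other comparisons. Of the 15 pairs of gene and comparison that were not called, 10 passed under at least 1 alternative, 9 of them with library weights. Weights gave 4 genes called for TM in *osm-3* mutants and 3 for genotype on vehicle. *phy-2* was among both, and with weights it also passed as higher in the mutants under TM (limma adjusted p = 0.043). The replicate block within each genotype gave 1 called for TM in *osm-3* mutants, and 4 were called for the difference of the responses with either replicate block. The replicate block changed no other call of the 5 genes except *pdi-1* in WT animals, given above. *pdi-1* in WT animals also passed with quantile normalization (0.47, limma adjusted p = 0.0036) and weights (0.29, limma adjusted p = 0.048).

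Directions turned only where differences were small. For *pdi-1* on vehicle the difference was 0.0021 with weights, 0.0013 with centring, 0.0018 with quantile normalization and -0.070 to 0.061 with 1 library left out. For *phy-2* the difference of the responses was 0.024 with weights, 0.042 with quantile normalization and -0.13 to 0.053 with 1 library left out. With TM in *osm-3* mutants, leaving out 1 library gave -0.016 to 0.21 for *pdi-2* and -0.012 to 0.14 for *phy-2*. The cause was not tested.

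Counts over all tested genes, 64, 3, 438, 792 and 20 in the order WT response, mutant response, genotype on vehicle, genotype under TM and difference of responses, became 193, 39, 735, 1413 and 35 with the replicate block and 595, 1423, 1420, 1683 and 154 with weights. With a filter at 3 log2 units they were 24, 0, 52, 165 and 12 of 1814 genes. With the block within genotype they were 244, 360 and 66 for the first, second and last. Without a filter 713 and 1189 passed for genotype on vehicle and under TM. For the mutant response, fitting only the groups compared gave 11, centring 5 and quantile normalization 6, and genotype under TM gave 401 with only the groups compared. Leaving out 1 library gave 41 to 161, 1 to 793, 315 to 517, 510 to 1596 and 10 to 27.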
